A study of Mus musculus with 9 samples.

Results

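The genes described here are the sodium, potassium and calcium channel genes of the mouse, taken by symbol: names that begin with Scn, a number and a or b, with Kcn, or with Cacn. The rule left out names ending in os or holding -ps, the epithelial sodium channel genes (Scnn) and 3 further genes. It found 134 genes among the 50764 of the count table. Of these, 131 are protein coding and 3 are noncoding RNAs that carry a channel gene's name (Kcnq1ot1, Kcnmb4os1 and Kcnmb4os2). The set is wider than voltage-gated channels in the strict sense, because the symbols also take in 15 inward rectifiers (Kcnj), 14 two-pore channels (Kcnk), 12 channels of the calcium- or sodium-activated group (Kcnm, Kcnn, Kcnt, Kcnu) and auxiliary subunits that form no pore.

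The RNA came from cells of the retina of adult male wild-type mice whose optic nerve had been crushed, with 14 days given for both the virus and the crush. Each eye received 1.5 µL of an adeno-associated virus of serotype AAV2 into the vitreous, coding for Olig2, for Olig3 or for green fluorescent protein (GFP), and each of these 3 groups held 3 libraries. Both Olig genes code for transcription factors of the basic helix-loop-helix family; the GFP virus was the control, and all groups shared the crush. Cells were enriched on beads against CD90.2 (Thy1), a surface protein of retinal ganglion cells, and 10 to 20 GFP-positive cells per library were picked by hand (the labels' sections give ranges within these limits). The labels name the cells retinal ganglion cells, do not give the promoter of the viruses, and do not say which libraries came from separate animals, so a p-value here reflects only how far these libraries lie apart, which may be technical. Olig1/2 stands in the title of the series, and the sample labels are followed here.

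Voltage-gated channels open when the membrane depolarises: sodium channels carry the upstroke of the action potential, calcium channels couple depolarisation to transmitter release, and potassium channels bring the membrane back to rest. A pore-forming subunit sets what passes, and auxiliary subunits set where the channel sits and how fast it opens and closes. In the retina, ganglion cells fire action potentials along their axons, whereas photoreceptors answer light with graded voltages shaped by potassium channels of the inner segment and by the silent subunit Kcnv2 (Kv8.2), which works only in complexes with other subunits.

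The libraries held 5355691 to 6979851 counts, and a gene with 0 counts could still have a level of up to 3 counts, or 0.430 to 0.560 CPM (counts scaled to a common library size). Counts of PCR-amplified reads are not independent molecules, and such limits cover counting error only. The Olig2 gene had 114, 97 and 21 counts in the Olig2 libraries, at most 6 in an Olig3 library and 0 in the GFP libraries. The Olig3 gene had 172, 113 and 597 counts in the Olig3 libraries, at most 7 in an Olig2 library and 13, 0 and 40 in the GFP libraries. Marker genes went against a pure ganglion cell sample: 13 rod genes held 8.01 to 14.3% of counts in Olig2, 6.10 to 15.6% in Olig3 and 4.74 to 7.12% in GFP libraries. The 13 ganglion cell genes summed to 162 to 348 CPM in Olig2, 126 to 281 CPM in Olig3 and 784 to 1563 CPM in GFP libraries, with Pou4f3 at 0 in the Olig2 group. Olig3 libraries 1 and 3 stood apart by their low number of detected genes (16188 and 14434, against 18184 to 21338 in the other 7), and Olig2 libraries 2 and 3 and Olig3 library 2 by a high share of the nuclear RNA Malat1 (11.7, 6.15 and 8.54%, against at most 4.14% elsewhere).

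Channel genes made up a small part of the RNA. They held 0.315, 0.226 and 0.195% of the counts in the Olig2 libraries, 0.425, 0.205 and 0.421% in the Olig3 libraries and 0.270, 0.243 and 0.201% in the GFP libraries. The 2 highest shares were those of Olig3 libraries 1 and 3, while Olig3 library 2 lay among the lowest. At least 1 count was found for 122 of the 134 genes. The 12 without one were Cacng6, Kcna7, Kcne4, Kcng3, Kcnh4, Kcnj4, Kcnj15, Kcnk7, Kcnk15, Kcnk16, Kcns1 and Kcns3, of which Kcng3, Kcns1 and Kcns3 are silent subunits. With 10 counts as the minimum, 79, 84 and 77 channel genes were detected in the Olig2 libraries, 70, 77 and 60 in the Olig3 libraries and 83, 76 and 69 in the GFP libraries. Genes with many counts in 1 library could be missing from the next: of 68 channel genes that reached 50 counts in an Olig3 library, 10 had no count in another Olig3 library, against 4 of 65 in the GFP group and 0 of 63 in the Olig2 group. Kcnd3, a Kv4 channel of the transient A-type current, is an example, with 0, 89 and 223 counts in the Olig3 libraries. Fewer cells of a type and less RNA per cell cannot be told apart in such pools.

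Compared per length, as CPM per kilobase of the longest transcript averaged over the 9 libraries, Kcnj14 (the inward rectifier Kir2.4) stood first at 126, with a range of 71.4 to 238. Kcne2, a small membrane partner of Kcnq1 and Kcnh2, had 30.3 (13.0 to 83.7), Kcnv2 had 28.6 (14.9 to 61.8) and Kcnma1, the pore of the large-conductance BK channel, had 20.0 (7.0 to 56.1). These 3 genes, together with Cacna2d3 at 19.7, Cacng3 at 17.1, Cacnb2 at 16.3 and Kcnip4 at 16 CPM per kb, overlapped in their ranges, so that their order is not separated by the spread between libraries. On the length of all exons merged, Cacna2d3 moved from place 6 to 11 and Cacnb2 from place 8 to 16. Among pore-forming sodium channel genes the highest levels per length were those of Scn1a (Nav1.1, 8.90) and Scn8a (Nav1.6, 6.18). Among the pore-forming calcium channel genes that the rule kept they were those of Cacna1h (the T-type Cav3.2, 4.81) and Cacna1d (the L-type Cav1.3, 2.95).

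**Figure D1:**
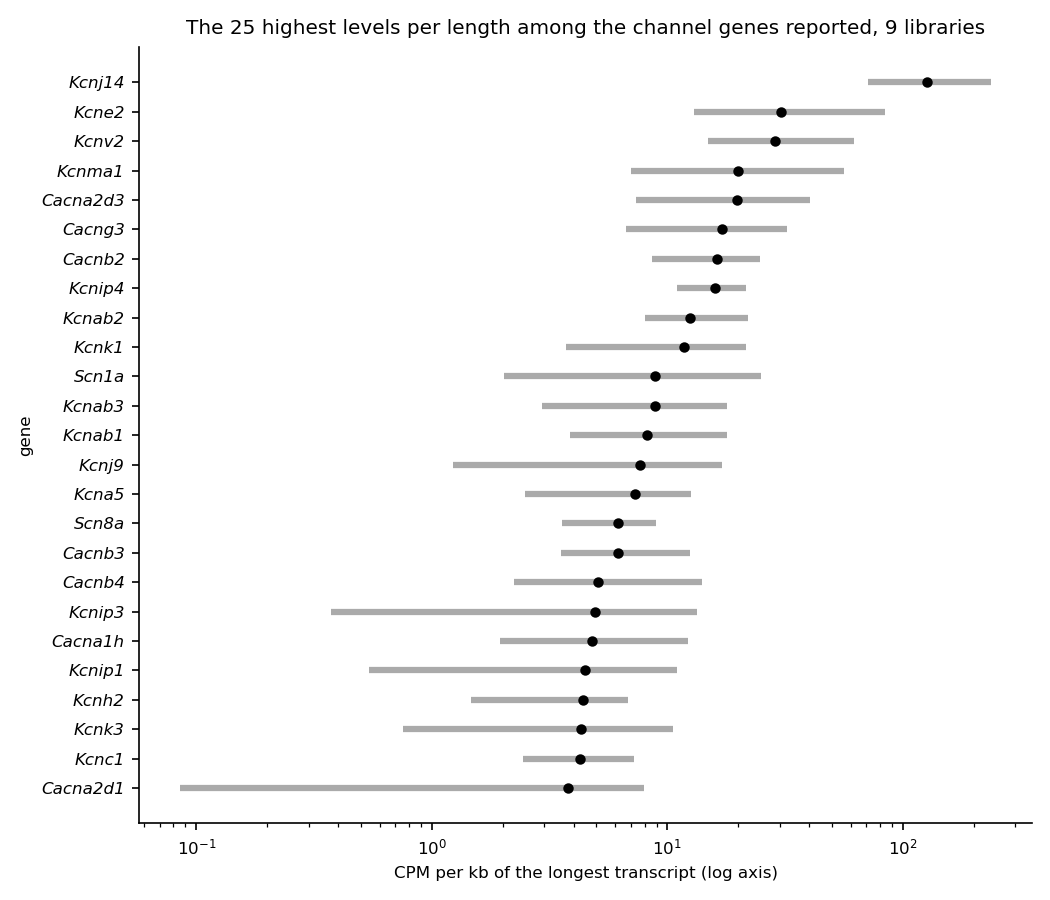
The 25 highest levels per length among the channel genes reported, in CPM per kilobase of the longest transcript on a log axis; points are means over the 9 libraries and bars run from the lowest to the highest library. Kcnj14 lies at 126, and the genes from Kcne2 (30.3) downwards overlap with their neighbours.

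The comparisons ask which channel genes differ when Olig2 or Olig3 is delivered in place of GFP after the crush. Of the 134 genes, 87 had enough counts to be tested, as had 15609 genes in all. No channel gene passed an adjusted p of 0.05 in any of the 3 comparisons (edgeR quasi-likelihood test, Benjamini-Hochberg adjustment over all tested genes). Few genes passed at all. Between Olig2 and GFP, 0.0384% of all tested genes were called higher and 0.0128% lower, 0.0513% in all. Between Olig3 and GFP, 0.0961% were called higher and 0.109% lower, 0.205% in all, and between Olig3 and Olig2 0% and 0.0384%, 0.0384% in all. Differences of single genes are therefore given as values, with the unadjusted p as a description. A p that misses the threshold does not show that groups were alike. Levels of single genes are CPM scaled by TMM factors, which correct for differences in composition between libraries, and are given for libraries 1, 2 and 3 of each group in that order.

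At an unadjusted p of 0.05, 5 channel genes were higher and 0 lower in Olig2 than in GFP, where 2.61% of all tested genes were higher, 2.08% lower and 4.68% either. In Olig3 against GFP, 11 channel genes were higher and 1 lower, 13.8% of those tested, where 5.76% of all tested genes were higher, 6.37% lower and 12.1% either. In Olig3 against Olig2, 4 were higher and 1 lower, where 2.07% of all tested genes were higher, 3.05% lower and 5.12% either. The total share of channel genes at this level was thus near that of all genes in each comparison. The direction was mostly upward: the median log2 change of the tested channel genes was 0.31 in Olig2 and 0.56 in Olig3 against GFP, beside -0.00047 and -0.06 over all tested genes, and 0.12 in Olig3 against Olig2, beside -0.06. Leaving out Olig3 libraries 1 and 3, those with the fewest detected genes, brought the median of Olig3 against GFP to 0.12. That setting keeps only library 2 of the Olig3 group, which is rich in Malat1. Leaving out the 3 Malat1-rich libraries keeps only library 1 of the Olig2 group. Values of these groups under these settings, here and below, therefore rest on 1 library. Without scaling beyond the library total, the median over all genes in Olig2 against GFP was -0.36 and that of the channel genes -0.06, so that the channel genes' upward direction there flipped, although they stayed above the median of all genes. The same setting gave 0.40 for the channel genes in Olig3 against GFP, beside -0.30 for all genes.

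**Figure D2:**
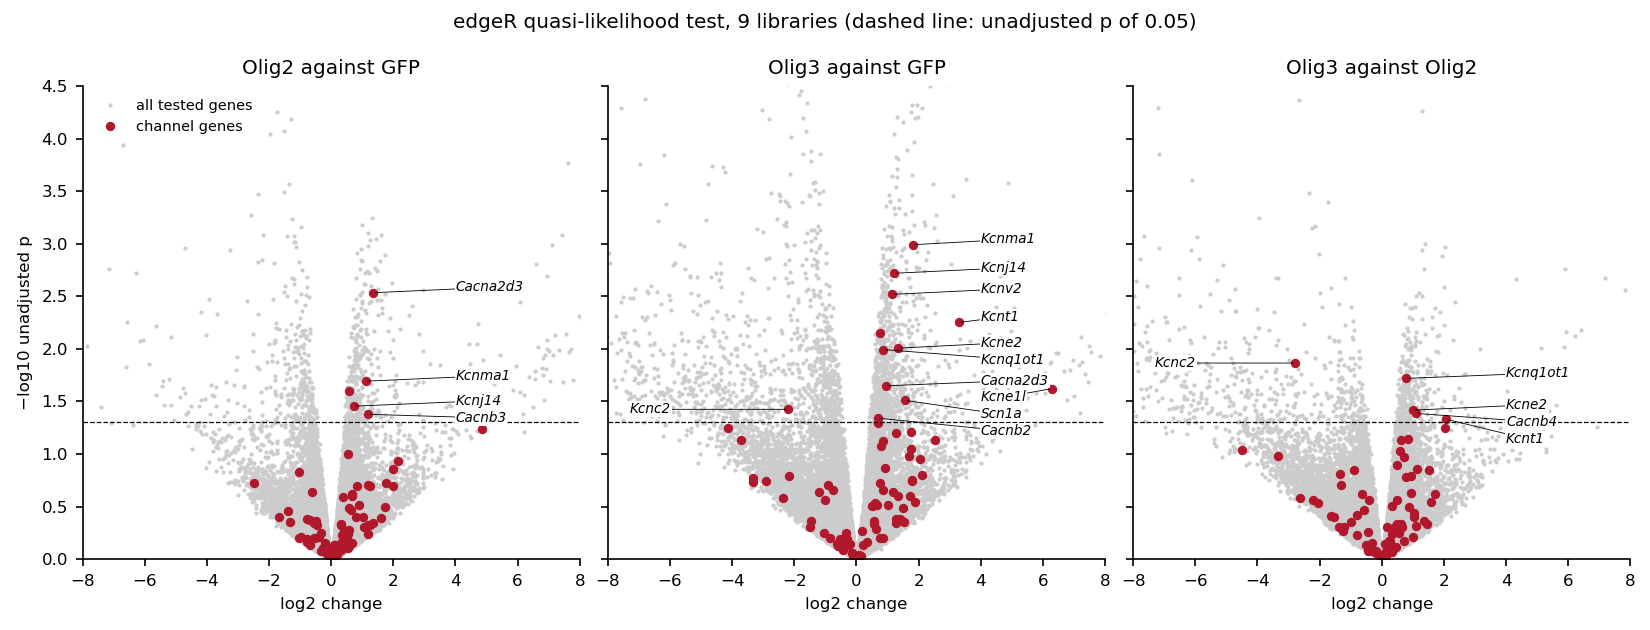
Log2 change (horizontal axis) and −log10 of the unadjusted p (vertical axis) of all tested genes in grey and the tested channel genes in red, in 1 panel for each of the 3 comparisons; genes beyond the axes are not drawn. The channel genes past an unadjusted p of 0.05 (dashed line) number 5, 12 and 5, those reported are named, and Kcnc2 alone lies on the lower side.

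Kcnv2, which forms no channel alone and alters the gating of its partners in the inner segments of photoreceptors, had 148, 98.2 and 159 CPM in Olig2, 299.7, 131 and 186 CPM in Olig3 and 78.9, 106 and 91.4 CPM in GFP libraries. The Olig3 libraries all lay above the GFP libraries, whereas the Olig2 libraries overlapped with them. On CPM of the library total Olig3 library 2 (97.7 CPM) lay below GFP libraries 2 and 3 (120 and 108 CPM). The log2 change of Kcnv2 was 1.16 ± 0.31 in Olig3 against GFP (SE; unadjusted p = 0.00303, adjusted p = 0.184, edgeR) and 0.55 ± 0.31 in Olig2 against GFP (unadjusted p = 0.0994). Without Olig3 libraries 1 and 3 the value of Kcnv2 in Olig3 against GFP was 0.52, and in Olig3 against Olig2 it was -0.041 in place of 0.61.

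Kcnj14, the inward rectifier with the highest level, had 273, 387 and 382 CPM in Olig2, 605, 541.5 and 320.1 CPM in Olig3 and 168, 294 and 170.3 CPM in GFP libraries. All Olig3 libraries exceeded the GFP libraries, and Olig2 library 1 fell below GFP library 2. The log2 change was 1.21 ± 0.31 in Olig3 against GFP (unadjusted p = 0.00191, adjusted p = 0.155) and 0.72 ± 0.30 in Olig2 against GFP (unadjusted p = 0.0351, adjusted p = 0.979). Its value in Olig3 against GFP was 1.37 without Olig3 libraries 1 and 3 and 1.13 without the 3 Malat1-rich libraries. In Olig2 against GFP it was 0.38 without the Malat1-rich libraries, which keeps Olig2 library 1 alone. With library totals as the only scaling it was 0.33 there (unadjusted p = 0.295, edgeR). The other inward rectifiers had far fewer counts. Kcnj9 (Kir3.3, a G protein-gated subunit) had 30.2, 31.7 and 21.4 CPM in Olig2, 62.4, 26.0 and 27.9 CPM in Olig3 and 26.8, 34.1 and 4.02 CPM in GFP libraries, with all groups overlapping. Kcnj10 (Kir4.1), the main potassium channel of Müller glia, had 18, 16.2 and 9.33 CPM in Olig2, 17.4, 10.8 and 7.04 CPM in Olig3 and 12.7, 3.43 and 29.7 CPM in GFP libraries, which also overlapped. Kcnj13, a channel of the retinal pigment epithelium, had 27 counts in all, and 49.1% of its exon length is shared with Gigyf2 on the other strand. Kcnj8, a pericyte channel, had 31 counts in all, and Kcnj2 had 95.

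Photoreceptor marker genes were also high in most Olig libraries. The summed rod level was above the GFP range in every Olig2 library and in Olig3 libraries 1 and 2, while Olig3 library 3, at 6.10%, lay within it. The 9 cone genes summed to 687 to 1791 CPM in Olig2, 2004 to 7436 CPM in Olig3 and 517 to 1325 CPM in GFP libraries, and 10 bipolar cell genes to 988 to 1732, 967 to 1737 and 818 to 940 CPM in the same order of groups, all listed genes being detected in each group. On CPM of the library total, Olig3 libraries 1, 2 and 3 had 316, 97.7 and 214 CPM of Kcnv2. Beside these stood 4307, 2004 and 7436 CPM of cone genes and 90527, 156184 and 61018 CPM of rod genes. The part of these other cells in the channel values was not tested.

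**Figure D3:**
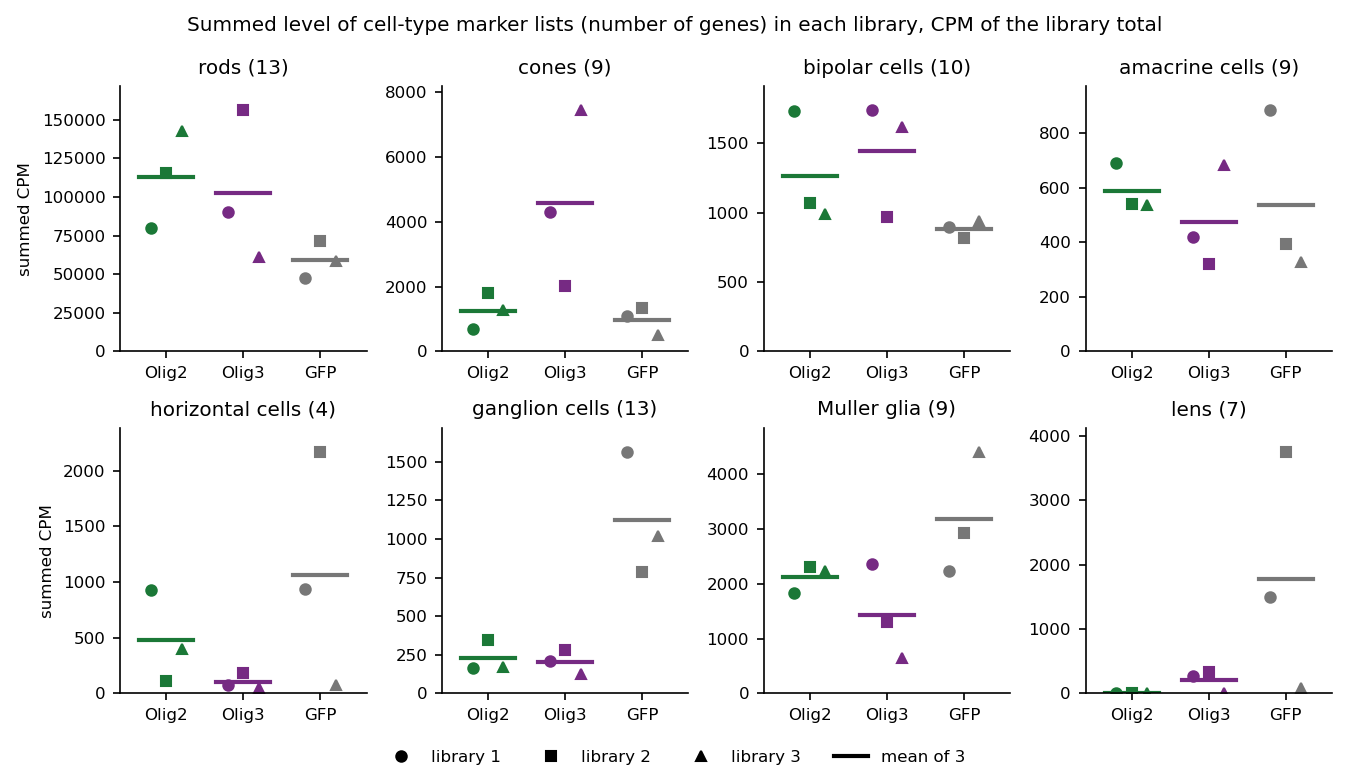
Summed CPM of 8 lists of cell type markers in each library of the Olig2, Olig3 and GFP groups; symbols mark the library number and lines the group means. Ganglion cell genes are lower in all 6 Olig libraries (126 to 348 CPM) than in the GFP libraries (784 to 1563 CPM), and the cone genes of every Olig3 library (2004 to 7436 CPM) exceed those of the other 6.

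Among the calcium- and sodium-activated channels, Kcnma1 and Kcnt1 were the genes that reached an unadjusted p of 0.05. Kcnma1, the BK pore opened by voltage together with calcium, had 313, 192 and 176 CPM in Olig2, 349, 184 and 588 CPM in Olig3 and 155, 75.0 and 84.6 CPM in GFP libraries. The GFP libraries were the 3 lowest of the 9 on this scale, and the 3 Olig3 libraries lay far apart. On CPM of the library total, Olig2 libraries 2 and 3 and Olig3 library 2 (149, 145 and 138 CPM) lay below GFP library 1 (177 CPM). With library totals as the only scaling, the log2 change of Kcnma1 in Olig2 against GFP was 0.81 (unadjusted p = 0.148, edgeR). The values that follow are with TMM factors. The log2 change was 1.83 ± 0.42 in Olig3 against GFP (unadjusted p = 0.00102, adjusted p = 0.127) and 1.11 ± 0.42 in Olig2 against GFP (unadjusted p = 0.0203, adjusted p = 0.859). Leaving out Olig3 library 2 gave 2.16 with an adjusted p of 0.0217 (edgeR), and leaving out Olig3 libraries 1 and 3 gave 0.83. Kcnt1, the sodium-activated channel Slack, had 1.14, 8.34 and 4.31 CPM in Olig2, 30.2, 8.50 and 18.6 CPM in Olig3 and 2.24, 1.40 and 2.14 CPM in GFP libraries. The Olig3 group did not overlap with either other group, but Olig3 library 2 lay only just above Olig2 library 2. Without TMM factors Olig3 library 2 (6.35 CPM) lay just below Olig2 library 2 (6.45 CPM). The log2 change of Kcnt1 was 3.30 ± 0.98 in Olig3 against GFP (adjusted p = 0.229), which was 2.14 without Olig3 libraries 1 and 3. In Olig3 against Olig2 it was 2.06 ± 0.93 (unadjusted p = 0.0467, adjusted p = 0.933), which was 0.90 without the same libraries. Without the 3 Malat1-rich libraries, with Olig2 library 1 alone, the value against Olig2 was 4.39. Kcnmb4, the neuronal beta subunit of BK channels, had 8.13, 9.30 and 1.08 CPM in Olig2, 7.67, 6.75 and 1.76 CPM in Olig3 and 0.449, 1.40 and 2.81 CPM in GFP libraries, with overlap. It shares 31.5% of its exon length with the noncoding Kcnmb4os1 and Kcnmb4os2 on the other strand. Reads in the shared stretches of these 3 genes cannot be told apart.

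Of the auxiliary subunits of potassium channels, Kcne2 had 29.4, 47.0 and 43.8 CPM in Olig2, 58.5, 60.0 and 123 CPM in Olig3 and 25.7, 51.2 and 18.6 CPM in GFP libraries. The Olig3 libraries were the 3 highest, and the other groups overlapped. Olig3 library 2 (44.8 CPM) lay below GFP library 2 (57.7 CPM) on CPM of the library total. The log2 change was 1.34 ± 0.43 in Olig3 against GFP (unadjusted p = 0.00985, adjusted p = 0.268) and 1.01 ± 0.43 in Olig3 against Olig2 (unadjusted p = 0.0383, adjusted p = 0.933). Without Olig3 library 3 these values were 0.90 and 0.57, and without the Malat1-rich libraries (Olig2 library 1 alone) the value against Olig2 was 1.60. Kcnab2, a cytoplasmic beta subunit of Kv1 channels, was also highest in the Olig3 group, with 39.4, 46.3 and 42.0 CPM in Olig2, 82.1, 51.5 and 56.2 CPM in Olig3 and 27.7, 49.4 and 41.0 CPM in GFP libraries. Without TMM factors its Olig3 library 2 (38.5 CPM) lay below GFP libraries 2 and 3 (55.7 and 48.5 CPM). Kcnip3, the calcium-binding protein calsenilin or DREAM that also binds Kv4 channels, had 33.4, 18.8 and 15.1 CPM in Olig2, 12.1, 13.8 and 0.880 CPM in Olig3 and 9.58, 14.9 and 5.09 CPM in GFP libraries, so that the 3 Olig2 libraries were the highest by a narrow gap. On CPM of the library total Olig2 library 3 (12.4 CPM) lay below GFP library 2 (16.8 CPM). Kcnip4, another calcium-binding partner of Kv4 channels, had 42.5, 35.8 and 35.0 CPM in Olig2, 45.7, 47.0 and 22.7 CPM in Olig3 and 33.2, 38.1 and 43.5 CPM in GFP libraries. Both Olig groups overlapped with the GFP group. Kcnip2, a Kv4 partner as well, had 0, 20 and 12 counts in Olig2, 0, 9 and 5 counts in Olig3 and 106, 174 and 3 counts in GFP libraries, so that GFP library 3 was as low as the rest. Kcne1l had 2, 14 and 12 counts in Olig2, 105, 1 and 0 counts in Olig3 and 1, 0 and 0 counts in GFP libraries, and its Olig3 value rested on library 1 alone.

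The Kv pore subunits held the one channel gene that was lower at an unadjusted p of 0.05. Kcnc2 (Kv3.2), a fast channel of neurons that fire at high rates, had 23.4, 25.3 and 18.1 CPM in Olig2, 1.62, 8.0 and 0.293 CPM in Olig3 and 21.25, 12.6 and 11 CPM in GFP libraries. In counts these were 164, 106 and 101 in Olig2, 11, 32 and 2 in Olig3 and 142, 99 and 82 in GFP libraries, and no Olig3 library reached the lowest of the other 6. The log2 change was -2.78 ± 0.96 in Olig3 against Olig2 (unadjusted p = 0.0137, adjusted p = 0.918) and -2.20 ± 0.94 in Olig3 against GFP (unadjusted p = 0.0376, adjusted p = 0.375). Without Olig3 library 2 the comparison with GFP gave -3.93 with an adjusted p of 0.0460 (edgeR), and without Olig3 libraries 1 and 3 it gave -0.88, beside -1.47 against Olig2. Kcnc1 (Kv3.1), its close relative, had 17.4, 44.6 and 32.3 CPM in Olig2, 40.1, 42.3 and 48.7 CPM in Olig3 and 35.3, 22.3 and 18.2 CPM in GFP libraries, so that its Olig3 libraries all lay above the GFP libraries. Without TMM factors Olig3 library 2 (31.6 CPM) lay below GFP library 1 (40.3 CPM). Kcna2 (Kv1.2), a Kv1 channel of axons, had 31.0, 61.8 and 20.1 CPM in Olig2, 11.4, 23.8 and 26.1 CPM in Olig3 and 36.1, 22.5 and 12.3 CPM in GFP libraries, with overlap. Kcnh2, the ERG channel that repolarises the heart, had 16.7, 26.9 and 7.54 CPM in Olig2, 27.3, 14.0 and 19.1 CPM in Olig3 and 18.6, 19.2 and 14.9 CPM in GFP libraries. The leak channel Kcnk1 (TWIK-1) had 30.8, 27.4 and 21.2 CPM in Olig2, 36.3, 21.8 and 41.7 CPM in Olig3 and 11.2, 7.36 and 34.5 CPM in GFP libraries, where GFP library 3 lay within the range of the Olig libraries and the other GFP libraries below it.

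**Figure D4:**
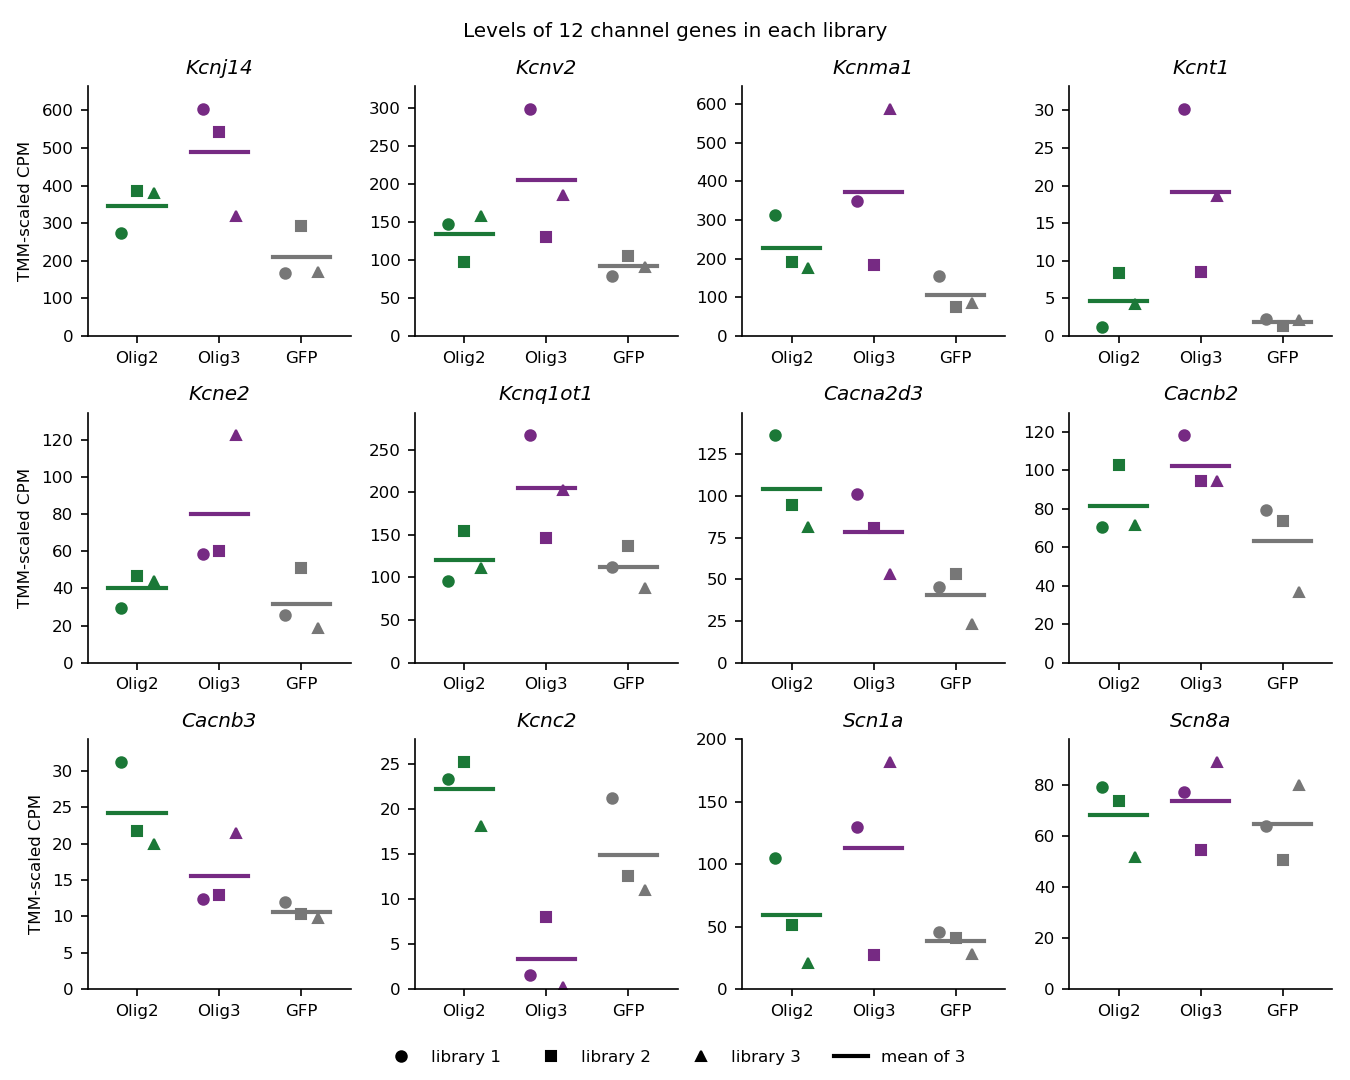
TMM-scaled CPM of 12 channel genes in each library of the Olig2, Olig3 and GFP groups; symbols mark the library number and lines the group means. Kcnma1 is higher in all 6 Olig libraries than in the GFP libraries, Kcnc2 is lowest in the Olig3 libraries (0.293 to 8.0 CPM), and Scn1a in Olig3 ranges from 27.8 to 182 CPM.

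The calcium channel genes that reached an unadjusted p of 0.05 all code for auxiliary subunits. Cacna2d3, an extracellular alpha2delta subunit that brings calcium channels to the membrane, had 136, 94.4 and 81.5 CPM in Olig2, 101, 80.5 and 53.0 CPM in Olig3 and 45.3, 53.2 and 23.0 CPM in GFP libraries. The Olig2 libraries lay above the GFP libraries, and the lowest Olig3 library fell just below the highest GFP library. For Cacna2d3 the log2 change was 1.36 ± 0.36 in Olig2 against GFP (unadjusted p = 0.00292, adjusted p = 0.511), the smallest p of a channel gene in that comparison, and 0.95 ± 0.36 in Olig3 against GFP (unadjusted p = 0.0225, adjusted p = 0.332). Cacnb2, a cytoplasmic beta subunit of photoreceptor calcium channels, had 70.5, 103 and 71.8 CPM in Olig2, 118, 94.3 and 94.5 CPM in Olig3 and 79.5, 73.9 and 36.5 CPM in GFP libraries. Its Olig3 libraries exceeded the GFP libraries on this scale, with a log2 change of 0.69 ± 0.31 (unadjusted p = 0.0457, adjusted p = 0.398). On CPM of the library total Olig3 library 2 (70.4 CPM) lay below GFP libraries 1 and 2 (90.7 and 83.4 CPM). The log2 change of Cacnb2 was 0.48 with library totals as the only scaling (unadjusted p = 0.196, edgeR). Without Olig3 libraries 1 and 3 it was 0.59. Cacnb3, another beta subunit, had 31.2, 21.7 and 19.9 CPM in Olig2, 12.4, 13.0 and 21.4 CPM in Olig3 and 12, 10.3 and 9.77 CPM in GFP libraries, so that the GFP libraries were the 3 lowest. On CPM of the library total GFP library 1 (13.7 CPM) lay above Olig3 libraries 1 and 2 (13.0 and 9.71 CPM). The log2 change of Cacnb3 was 1.19 ± 0.52 in Olig2 against GFP (unadjusted p = 0.0419, adjusted p = 0.999997). With library totals as the only scaling it was 0.87 (unadjusted p = 0.176, edgeR). Cacnb4 had 25, 28.8 and 22.4 CPM in Olig2, 35.8, 27.3 and 100.5 CPM in Olig3 and 40.9, 25.5 and 49.5 CPM in GFP libraries, with the highest value in Olig3 library 3. Its log2 change of 1.104 ± 0.48 in Olig3 against Olig2 (unadjusted p = 0.0412) was 0.31 without that library. Opposite-strand exons of another gene cover 16% of its length.

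The 9 pore-forming calcium channel genes that the rule kept were all tested, and none reached an unadjusted p of 0.05 in any comparison. Cacna1h had 35.1, 31.9 and 20.8 CPM in Olig2, 37.8, 26.8 and 87.4 CPM in Olig3 and 41.5, 46.2 and 13.5 CPM in GFP libraries. Cacna1d had 22.8, 21.7 and 20.6 CPM in Olig2, 52.1, 19.8 and 45.6 CPM in Olig3 and 25.3, 21.8 and 18.6 CPM in GFP libraries, so that Olig3 libraries 1 and 3 stood above the rest and library 2 did not. Cacna2d1, the alpha2delta subunit that gabapentin binds, had 26.8, 26.2 and 17.4 CPM in Olig2, 2.65, 24.3 and 44.6 CPM in Olig3 and 52.1, 50.1 and 0.536 CPM in GFP libraries. GFP library 3 was nearly without it, so that the GFP group spanned all other libraries. Cacng3, which in the brain serves as a partner of AMPA receptors, had 79.8, 31.2 and 36.6 CPM in Olig2, 45.0, 35.3 and 19.4 CPM in Olig3 and 71.4, 79.6 and 15.7 CPM in GFP libraries, with all groups overlapping.

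Of the 7 sodium channel alpha subunits tested, 4 had a log2 change above 0 in Olig2 against GFP, 5 in Olig3 against GFP and 7 in Olig3 against Olig2, and of the 3 tested beta subunits 1, 0 and 2 did. Over all tested genes, 50, 47 and 46% were above 0 in these comparisons. Without Olig3 libraries 1 and 3, which keeps library 2 alone in that group, 8 alpha subunits were tested. Of these, 2 were above 0 in Olig3 against GFP and 2 in Olig3 against Olig2, beside 44.2 and 44.9% of all tested genes. Scn1a, the Nav1.1 channel of many retinal and brain neurons, had 105, 51.5 and 20.6 CPM in Olig2, 130.2, 27.8 and 182 CPM in Olig3 and 45.8, 41.3 and 28.2 CPM in GFP libraries. Olig3 libraries 1 and 3 were the highest of the 9, and Olig3 library 2 was below every GFP library. The log2 change in Olig3 against GFP was 1.56 ± 0.64 (unadjusted p = 0.0310, adjusted p = 0.358). Without Olig3 libraries 1 and 3 it was -0.46, on the other side of 0. Scn8a, the sodium channel of the axon initial segment and nodes of Ranvier, had 79.0, 73.9 and 51.7 CPM in Olig2, 77.1, 54.5 and 89.0 CPM in Olig3 and 63.9, 50.6 and 80.2 CPM in GFP libraries. All 3 groups overlapped. Scn9a (Nav1.7), best known from pain-sensing neurons, had 14.0, 4.53 and 8.07 CPM in Olig2, 26.7, 8.50 and 73.3 CPM in Olig3 and 23.6, 1.78 and 6.83 CPM in GFP libraries, with the highest value again in Olig3 library 3. Scn2a (Nav1.2) had 22.7, 31.0 and 22.2 CPM in Olig2, 7.37, 18.5 and 49.9 CPM in Olig3 and 38.2, 28.9 and 28.9 CPM in GFP libraries, the Olig3 libraries lying on both sides of the others. Scn2b had 13.1, 18.8 and 12.6 CPM in Olig2, 5.60, 10.8 and 1.76 CPM in Olig3 and 28.4, 2.03 and 11 CPM in GFP libraries, where the GFP libraries spanned all the others except Olig3 library 3. Scn4b had 1 count in the whole table. Ganglion cell genes were lower in all Olig2 and Olig3 libraries than in the GFP libraries, and their part in the sodium channel values was not tested.

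**Figure D5:**
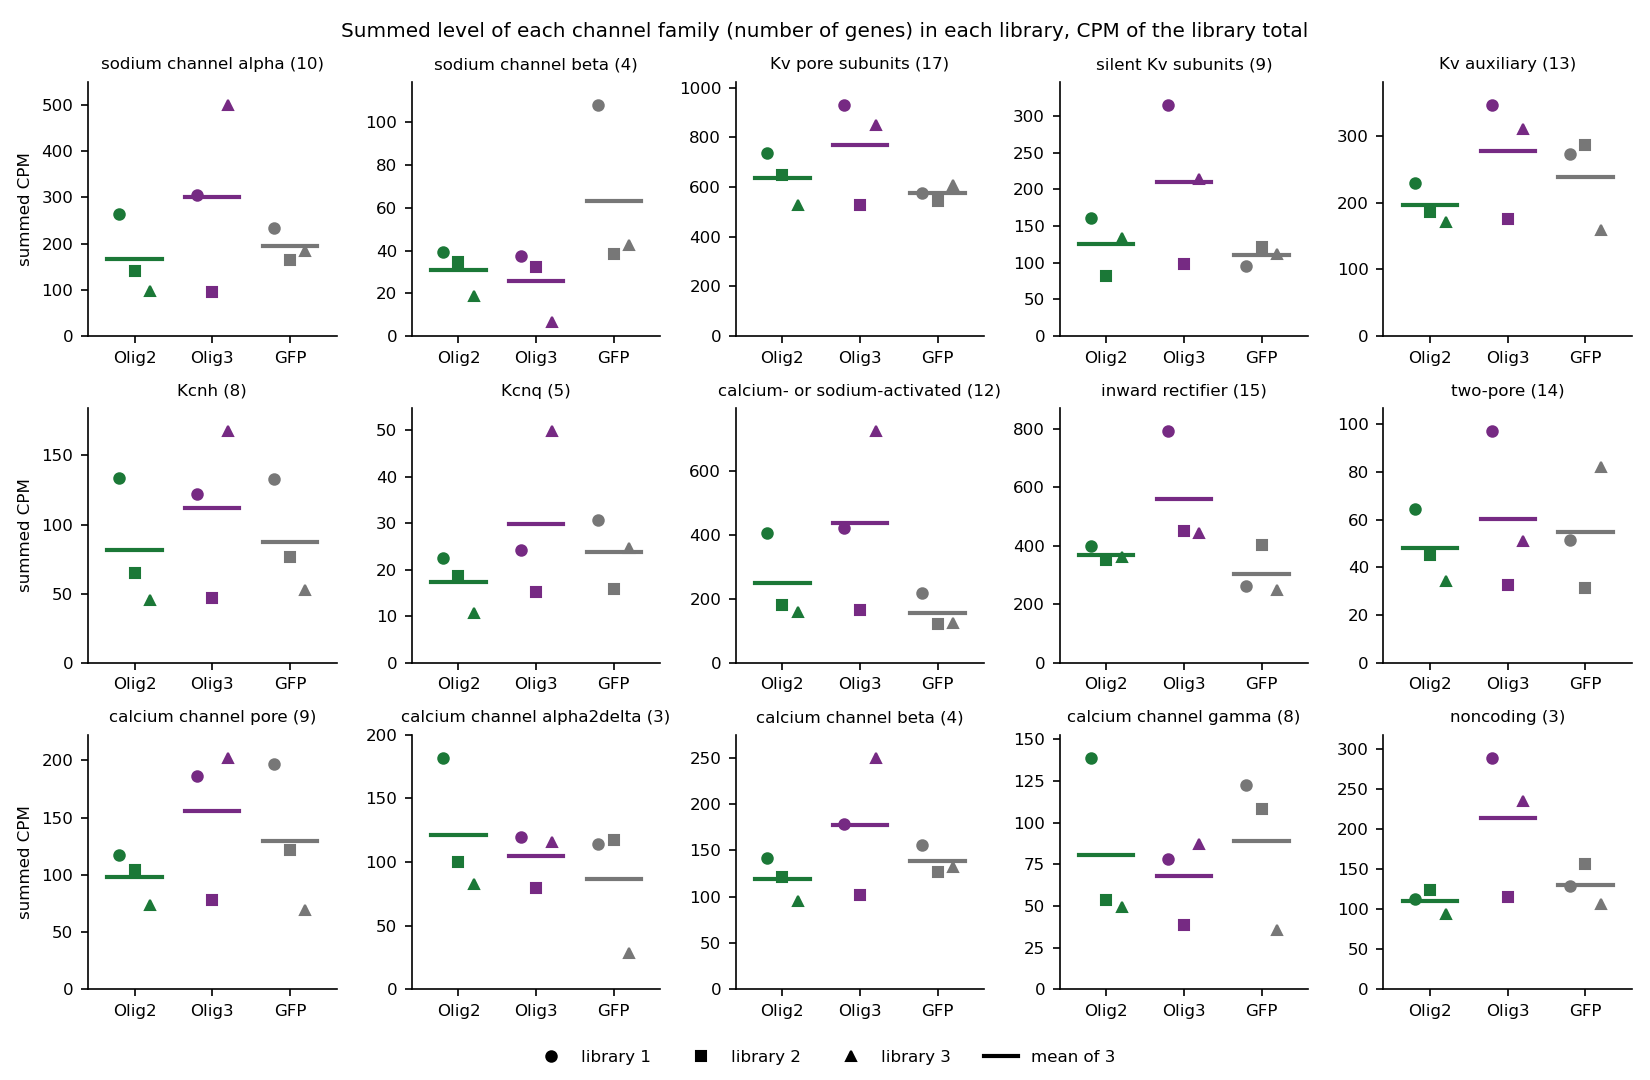
Summed CPM of the library total for each of 15 channel families (number of genes in brackets) in each library of the Olig2, Olig3 and GFP groups; symbols mark the library number and lines the group means. In 13 of the 15 families Olig3 library 2 is the lowest of the Olig3 group, as for sodium channel alpha subunits with 94.3 CPM, beside 306 and 501 CPM in Olig3 libraries 1 and 3.

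Summed over a family, the overlap of the groups depended on the scaling. On CPM of the library total the Olig2 group overlapped with GFP in all 15 families, and the Olig3 group in 13. In Olig3 the inward rectifiers lay above GFP (442 to 792 CPM in Olig3, 250 to 402 CPM in GFP libraries). The sodium channel beta subunits lay below by a narrow gap (6.77 to 37.4 CPM in Olig3, 38.4 to 108 CPM in GFP libraries). On TMM-scaled CPM, the scale used for single genes, 3 families lay above GFP in every Olig2 and every Olig3 library. The Kv pore subunits summed there to 640.0 to 839 CPM in Olig2, 706 to 885 CPM in Olig3 and 483 to 515 CPM in GFP libraries. The inward rectifiers had 364 to 454 CPM in Olig2, 383 to 752 CPM in Olig3 and 211 to 356 CPM in GFP libraries. For the calcium- or sodium-activated channels the sums were 193 to 371 CPM in Olig2, 221 to 628 CPM in Olig3 and 105 to 192 CPM in GFP libraries, so that the gap between Olig2 and GFP was narrow. The silent Kv subunits and the noncoding genes lay above GFP in the Olig3 group alone, and the sodium channel beta subunits overlapped on this scale. Much of such a sum came from 1 gene. In Olig3 library 3, Kcnma1 held 588 of the 628 CPM of its family and Kcnj14 320.1 of 383 CPM. Kcnv2 held 185.6 of 185.7 CPM there, and Kcnq1ot1 202 of 204 CPM. On CPM of the library total, the 17 Kv pore subunits summed to 637 ± 105 CPM in Olig2, 770.1 ± 214 CPM in Olig3 and 577 ± 32.0 CPM in GFP libraries (mean ± SD, n = 3 each), the 15 inward rectifiers to 369 ± 24.8, 561 ± 200 and 304 ± 84.8 CPM, and the 12 calcium- or sodium-activated channels to 248 ± 136, 438 ± 280.2 and 155 ± 56.3 CPM in the same order of groups. The 4 sodium channel beta subunits summed to 30.8 ± 10.7 CPM in Olig2, 25.6 ± 16.5 CPM in Olig3 and 63.1 ± 39.2 CPM in GFP libraries. The spread of the Olig3 group followed 1 pattern: library 2 was the lowest of the group in 13 of the 15 families, and in 12 of the 15 with TMM-scaled CPM. That library is also the Olig3 library rich in Malat1, and libraries 1 and 3 are those with few detected genes, so that these features cannot be told apart. Counted gene by gene, 11 of the 15 tested Kv pore subunits had a log2 change above 0 in Olig2 against GFP and 7 in Olig3 against GFP. The inward rectifiers had 6 of 8 above 0 in both, the pore-forming calcium channels 5 and 7 of 9, and the calcium- or sodium-activated channels 6 and 3 of 7, while 50% of all tested genes were above 0 in Olig2 against GFP and 47% in Olig3 against GFP.

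Counted by separation alone, 7 channel genes were higher in every Olig2 than in every GFP library (among them Cacna2d3, Cacnb3, Kcne1l, Kcnip3, Kcnma1 and Kcnmb4os1), 8.05% of those tested beside 8.47% of all tested genes, and 1 was lower, where 8.35% of all tested genes were. Kcne1l separated by 2 counts in Olig2 library 1 beside 1 count in GFP library 1, within the limit of 3 counts given above. Kcnip3 separated by 15.07 CPM in Olig2 library 3 beside 14.85 CPM in GFP library 2. Kcnmb4os1 had 22, 14 and 14 counts in Olig2 and 2, 9 and 4 counts in GFP libraries. In Olig3 against GFP, 14 channel genes were higher, 16.1% beside 7.18% of all tested genes, among them Cacnb2, Cacnb3, Kcna4, Kcna6, Kcnab2, Kcnc1, Kcne2, Kcnj14, Kcnma1, Kcnmb4os1, Kcnq1ot1, Kcnt1 and Kcnv2. Kcnc2 alone was lower, where 10.0% of all tested genes were. In Olig3 against Olig2, Kcnab2, Kcne2 and Kcnt1 were higher (3.45%, beside 4.41% of all tested genes) and Kcnc2, Kcnip3 and Scn2b lower (3.45%, beside 8.69%). On CPM of the library total without TMM factors, 4 genes were higher in Olig3 than in GFP (Cacna2d3, Kcnj14, Kcnmb4os1 and Kcnt1), 4.60% of those tested beside 2.09% of all tested genes, and 3 were lower, 3.45% beside 16.3%. Of these 4 genes, 3 were also among the 14 higher with TMM factors. The gaps of Cacna2d3 and Kcnmb4os1 were narrow. Cacna2d3 had 60.12 CPM in Olig3 library 2 and 60.03 CPM in GFP library 2. Kcnmb4os1 had 9 counts each in Olig3 library 3 and GFP library 2 (1.52 and 1.29 CPM). On the same scale 4 genes were higher in Olig2 than in GFP (Cacna2d3, Cacnb3, Kcne1l and Kcnmb4os1), 4.60% beside 2.74% of all tested genes, and 4 were lower, 4.60% beside 18.0%. All 4 of the higher ones were also among the 7 with TMM factors. This scaling moves the median of all genes, so the counts are read against those shares. Both comparisons share the GFP libraries.

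The noncoding Kcnq1ot1, an imprinted RNA that runs antisense through Kcnq1, had 96.2, 154 and 111 CPM in Olig2, 267, 146 and 202 CPM in Olig3 and 112, 137 and 88.1 CPM in GFP libraries. The Olig3 libraries all lay above the GFP libraries, and Olig3 library 2 was below Olig2 library 2. On CPM of the library total Olig3 library 2 (109 CPM) lay below GFP libraries 1 and 2 (128 and 155 CPM). With library totals as the only scaling the log2 change in Olig3 against GFP was 0.69 (unadjusted p = 0.0685, edgeR). The values that follow are with TMM factors. For Kcnq1ot1 the log2 change was 0.87 ± 0.28 in Olig3 against GFP (unadjusted p = 0.0102, adjusted p = 0.268) and 0.77 ± 0.28 in Olig3 against Olig2 (unadjusted p = 0.0191, adjusted p = 0.918). Without Olig3 libraries 1 and 3 (Olig3 library 2 alone) these values were 0.39 and 0.29. Without the Malat1-rich libraries (Olig2 library 1 alone) the value against Olig2 was 1.27. Kcnq1 itself, a Kv7 channel, had 11 counts over all libraries.

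Olig factors bind E-boxes, short motifs of which CAGCTG and CATATG are the palindromic forms searched here; being palindromes, each reads the same on both strands. The promoter windows of Kcnma1, Cacna2d3 and Kcnc2 (250 bases before to 50 after the annotated start, RefSeq, GRCm38.p6) are shown because these genes had the smallest p of the channel genes in 1 comparison each (Kcnma1 in Olig3 and Cacna2d3 in Olig2 against GFP, Kcnc2 between Olig3 and Olig2); capitals mark a motif. The window of Kcnma1 on the minus strand (chr14:24004156-24004455) holds neither motif. It lies away from the gene's GENCODE start at 24014491 and does not cover the bases there. The window of Cacna2d3 on the minus strand (chr14:29721815-29722114) holds CAGCTG 172 bases before the start. The Kcnc2 window at the gene's GENCODE start, on the plus strand (chr10:112270871-112271170), holds CAGCTG 10 bases before the start. All 4 windows listed for Kcnc2 hold CAGCTG.
Kcnma1: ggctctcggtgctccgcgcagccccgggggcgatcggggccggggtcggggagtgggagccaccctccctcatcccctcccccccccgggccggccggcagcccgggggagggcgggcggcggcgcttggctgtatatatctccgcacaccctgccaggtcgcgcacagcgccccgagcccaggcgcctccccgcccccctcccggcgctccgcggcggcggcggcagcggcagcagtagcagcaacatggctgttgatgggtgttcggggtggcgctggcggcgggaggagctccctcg
Cacna2d3: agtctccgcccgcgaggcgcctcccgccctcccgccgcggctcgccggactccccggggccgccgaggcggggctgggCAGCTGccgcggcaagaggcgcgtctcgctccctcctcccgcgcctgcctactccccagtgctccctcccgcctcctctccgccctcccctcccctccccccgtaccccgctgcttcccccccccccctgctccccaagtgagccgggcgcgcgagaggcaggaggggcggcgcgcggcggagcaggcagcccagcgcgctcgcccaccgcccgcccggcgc
Kcnc2: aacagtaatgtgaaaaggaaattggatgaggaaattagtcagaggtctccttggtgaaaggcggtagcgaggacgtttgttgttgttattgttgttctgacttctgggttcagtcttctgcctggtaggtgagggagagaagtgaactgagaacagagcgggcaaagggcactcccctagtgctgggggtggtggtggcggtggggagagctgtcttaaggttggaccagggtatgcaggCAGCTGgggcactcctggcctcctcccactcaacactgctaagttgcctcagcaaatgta
CAGCTG was found in 26.7% of the 135 windows of 99 channel genes, beside 16.3% of all 32851 windows, and CATATG in 2.22% beside 3.91%. A match describes letters in the window and not a bound site.

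Genes that act with these channels were counted in the same way. Of 57 listed partners and related channels (HCN and leak channels, two-pore and CatSper channels, and partners of sodium, potassium and calcium channels), 49 were tested and 0 were called in any comparison by edgeR. At an unadjusted p of 0.05, 3 were higher and 0 lower in Olig2 than in GFP (among them Gem and Rims2), 6.12% of those tested beside 4.68% of all tested genes. In Olig3 against GFP 3 were higher and 0 lower (Cabp4, Rims2 and Unc80), 6.12% beside 12.1%, and in Olig3 against Olig2 1 was higher and 0 lower (Cabp4), 2.04% beside 5.12%. Rims2, which ties calcium channels to release sites at ribbon synapses, had 234, 192 and 260.3 CPM in Olig2, 227, 265 and 336 CPM in Olig3 and 142, 126 and 127 CPM in GFP libraries, and no Olig library overlapped with the GFP libraries. Its log2 change was 0.80 ± 0.22 in Olig2 against GFP (adjusted p = 0.524) and 1.07 ± 0.22 in Olig3 against GFP (adjusted p = 0.0839). Cabp4, the calcium-binding protein of photoreceptor terminals, had 213, 263 and 298 CPM in Olig2, 449.7, 384 and 342 CPM in Olig3 and 131, 218 and 243 CPM in GFP libraries. Its Olig3 libraries were the 3 highest, with a log2 change of 0.99 ± 0.26 against GFP (adjusted p = 0.176).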

How the data were processed

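The authors deposited 1 table of raw read counts per gene; FastQC, HISAT2, HTSeq and mm10 are named in the submitters' processing notes, with versions, filters and strandedness not given in the sources used here. Reads in exons that overlap on opposite strands therefore cannot be told apart. Libraries were prepared with SMART-Seq HT and 20 PCR cycles, per the labels' protocols. All 9 count columns were matched to their libraries by name. Total counts, 5355691 to 6979851, set a limit of 0.430 to 0.560 CPM for a count of 0.

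The main test was that of edgeR 4.0.16 under R 4.3.3 (quasi-likelihood F test, TMM factors, filterByExpr with 15609 genes tested, group means over all 9 libraries with 6 residual degrees of freedom, common dispersion 0.532, Benjamini-Hochberg adjustment over all tested genes, threshold 0.05). Each Olig group was set against GFP, sharing the GFP libraries, and Olig3 against Olig2. An SE is the log2 change divided by the square root of F. The fit was tested on simulated data. Single genes are given in TMM-scaled CPM, levels between genes are CPM per kilobase of the longest transcript, and sums over lists are CPM of the library total. Exons and coordinates are from GENCODE release M21 and promoter windows from RefSeq (GRCm38.p6). Alternatives were other scaling, other filters, DESeq2 1.42.0, limma-voom (limma 3.58.1), robust estimation, a replicate block, the compared groups alone, another threshold and leaving out libraries.

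The members, lists, alternatives and the rule for named genes were chosen with earlier results of these data known. The rule took, per comparison and direction, the 8 channel genes with the smallest p, the 2 of each family with the highest level per length, and markers of retinal cell classes, 53 genes in all. Kcna4, Kcna6, Kcnd3, Kcnmb4, Kcnmb4os2, Kcnq1 and the genes without a count stand outside it and were chosen after their values were seen. Kcnd3os and Kcnab3os fell under the exclusion of names ending in os, while Kcnmb4os1 and Kcnmb4os2 end in a digit and stayed. Some genes that the rule takes are not reported here; all counts and sums include them.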

Additional observations from a re-analysis of the deposited data

How the results depend on the processing

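No channel gene was called between Olig3 and Olig2 under any alternative (edgeR, 5 genes at an unadjusted p of 0.05). In Olig2 against GFP the count of called channel genes was 0 except without a filter, where it was 2 (Cacna2d3 and Kcnma1). In Olig3 against GFP it was 5 without a filter (Kcne2, Kcnj14, Kcnma1, Kcnv2 and Scn1a), 5 by DESeq2 (among them Kcnj14, Kcnma1, Kcnt1 and Kcnv2) and 0 to 3 when a single library was left out, the 3 being Kcnc2, Kcnma1 and Kcnv2 without Olig3 replicate 2. The counts at an unadjusted p of 0.05 ran from 1 to 8 in Olig2 against GFP. In Olig3 against GFP they ran from 7 to 23, and in Olig3 against Olig2 from 1 to 17. Settings that keep 1 library of a group are left out of these counts and of those that follow. Over all genes, 8 were called in Olig2 against GFP, against 0 with library totals only, 176 without a filter, 86 by DESeq2, 5 without the 3 Malat1-rich libraries, 41 without Olig3 libraries 1 and 3, 23 with the compared groups alone and 0 to 24 with 1 library left out. In Olig3 against GFP, 32 were called, against 556 without a filter, 493 by DESeq2, 78 by limma-voom, 20 without the Malat1-rich libraries, 0 without Olig3 libraries 1 and 3, 0 with the compared groups alone, 87 at an adjusted p of 0.1 and 0 to 505 with 1 library left out (505 without Olig3 replicate 2). In Olig3 against Olig2, 6 were called, against 140 without a filter, 82 by DESeq2, 1 by limma-voom, 2 with the compared groups alone, 12 at an adjusted p of 0.1 and 2 to 160 with 1 library left out.

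The deviations of same-numbered libraries correlated at -0.0634 to 0.113, and those of libraries with different numbers at -0.115 to 0.0747. Whether same-numbered libraries shared an animal or a day cannot be told from these values. With the replicate block 0 channel genes were called in each comparison, and 10, 0 and 8 genes over all.

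Leaving out Olig3 libraries 1 and 3 kept library 2 alone in that group. Under this setting the log2 change in Olig3 against Olig2 turned to -0.059 for Scn9a, -0.13 for Cacna1d and -0.041 for Kcnv2. That of Scn1a in Olig3 against GFP turned to -0.46. Kcng2, with 42 counts, ranged from -5.20 to 1.84 in Olig3 against GFP when a single library was left out (1.84 without GFP replicate 2). It turned to 2.35 in Olig3 against Olig2 without the Malat1-rich libraries, with Olig2 library 1 alone in its group. With TMM-scaled CPM, the summed level of the Kv pore subunits in GFP was 501 CPM in place of 577 (in Olig2 718 in place of 637, in Olig3 776 in place of 770.1), of the calcium channel beta subunits in GFP 120.0 in place of 138, of the silent Kv subunits in GFP 95.5 in place of 109.9, of the inward rectifiers in Olig2 418.5 in place of 369, and of the noncoding genes in Olig2 126 in place of 110.5. With that scaling 3 families separate from GFP in Olig2 in place of 0, and 5 in Olig3 in place of 2. By merged exon length Cacna2d3 stood at place 11 and Cacnb2 at 16. The causes were not tested. Depth limits what a count of 0 shows: a gene with none may still lie at up to 0.430 to 0.560 CPM.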
